A study of Mus musculus with 6 samples.

Results

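The genes of the proteasome were read out in MC3T3-E1 cells, a mouse preosteoblast line, after 24 h in 200 µM sulfasalazine. They were taken as the rows of the deposited gene table whose symbol begins with Psm, a letter from a to g and a digit, which gave 48 of 14003 genes. The sulfasalazine group (SAS) held 3 libraries of wild-type MC3T3-E1 cells, and the control group (CTL) held 3 libraries of the same wild-type cells left untreated, with no vehicle named. All 6 libraries carried 1 batch label, and the labels do not say whether replicates came from separate cultures. The spread that each p-value is set against is therefore that of these libraries and may be technical. Sulfasalazine is an anti-inflammatory drug, and the series title concerns its action on TNFα, its receptor TNFR1 and NF-kB signalling.

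The proteasome degrades proteins tagged with ubiquitin. Its barrel-shaped core is built of alpha rings, which gate the entrance, and beta rings, which hold the protein-cutting sites, and it is capped by a base of ATPases that unfold the substrate, a lid that removes the ubiquitin, or other activators. The NF-kB pathway uses it to remove the inhibitor IκBα and to trim NF-kB precursors. In cells exposed to interferon or belonging to the blood lineage, inducible beta subunits replace the constitutive cutting subunits to form the immunoproteasome.

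Fragment densities scaled for gene length and library depth (FPKM) were compared as log2(FPKM + 1) with limma, adjusted over all tested genes by the Benjamini-Hochberg method, at an adjusted p under 0.05. A gene was tested if it reached 1 FPKM in at least 3 libraries. Of the 48 members, 46 were tested and the inducible genes Psmb8 and Psmb9 fell below this level. The libraries held from 15980940 reads on genes, in control replicate 3, to 21579133, in sulfasalazine replicate 1, as recovered from the FPKM. Of 10 osteoblast markers, 6 had values, and the defining genes Sp7, Bglap and Col1a1 had means below 1 FPKM, whereas Runx2, Spp1 and Sparc had 10 FPKM or more. Sp7 had 0 reads in 5 of the 6 libraries. The markers Alpl, Ibsp, Col1a2 and Dlx5 were not analysed here. The summed level of the markers was 889 to 1110 FPKM with sulfasalazine and 1549 to 2142 FPKM in controls, nearly all from Spp1, and its part in the results was not tested. Among the genes called as different, control replicate 3 was the control library nearest to the sulfasalazine mean for 60.3%, and for 19 of the 29 members called (65.5%).

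Proteasome genes did not move as a block after sulfasalazine. Of the 46 tested members, 18 rose (39.1%), 11 fell (23.9%) and 17 did not pass, where 37.2% of all 10338 tested genes rose and 29.3% fell. The share of members called in either direction was 63.0%, against 66.5% of all tested genes, so it lay near the background. With median-of-ratios scaling, which moved the median of all genes by -0.12 on the log2 scale, the split was 14 higher and 15 lower. Without control replicate 3 it was 21 higher and 13 lower. In bulk RNA, fewer cells of a type and less RNA per cell cannot be told apart. The groups did not overlap for 33 members (71.7%), where 71.4% of all tested genes had separate groups. The median log2 fold change, sulfasalazine over control, was 0.09 for the members and 0.08 for all tested genes, and with median-of-ratios scaling it was -0.04 and -0.03. Most of the members' differences were small: 6 were called with an absolute log2 fold change of at least 1, which is 13% of the members tested and compares with 33.2% of all tested genes. The 6 were the activator genes Psme1 and Psme2, the copy Psme2b, and the cap genes Psmd1, Psmd13 and Psmd14.

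**Figure D1:**
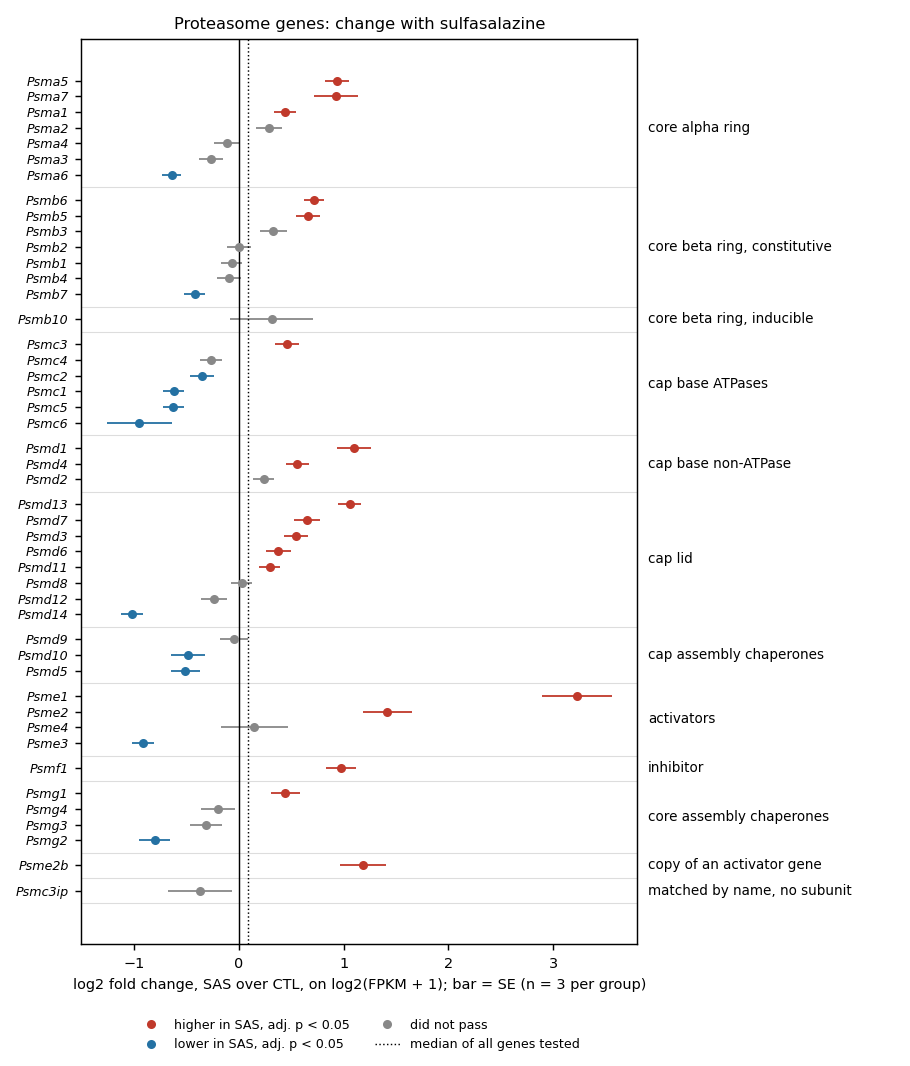
Log2 fold change of the 46 tested proteasome genes, sulfasalazine (SAS) over control (CTL), on log2(FPKM + 1), ordered within structural class; points are limma estimates, bars are 1 SE and n = 3 libraries per group. Psme1 stands farthest right at 3.23 and Psmd14 farthest left at -1.02, and most classes of several genes lie on both sides of 0.

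The activators included the widest rises among the members, and they differed in direction. Psme1 and Psme2 encode the alpha and beta subunits of PA28, a ring that opens the core without ubiquitin or ATP and that interferon is known to induce. They lie 5911 bases apart on mouse chromosome 14 (GRCm38). Psme1 (chr14:55578123-55581529) stood at 142, 147 and 136 FPKM in sulfasalazine replicates 1, 2 and 3, against 9.91, 10.5 and 27.4 FPKM in control replicates 1, 2 and 3. Every treated library was above every control library, and control replicate 3 was the highest of the controls. The log2 fold change was 3.23 (SE 0.33, limma adjusted p = 7.8e-05), a fitted 9.36-fold rise, and it was 3.67 without control replicate 3. Psme2 (chr14:55587441-55591113) stood at 75.7, 68.2 and 57.3 FPKM with sulfasalazine, against 21.5, 18.6 and 35.9 FPKM in controls, listed here and below in the order of replicates 1, 2 and 3. It rose by 1.42 on the log2 scale (SE 0.23, adjusted p = 0.00092), and control replicate 3 was again the highest control.

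Psme2b, an intact copy of Psme2 on chromosome 11, read 15.98, 15.5 and 19.9 FPKM with sulfasalazine and 6.39, 5.27 and 9.77 FPKM in controls (log2 fold change 1.19, SE 0.22, adjusted p = 0.0018). Of its 50-base words 68.7% also occur in Psme2 transcripts, and 28.3% of the words of Psme2 occur in Psme2b, so reads of the pair cannot be assigned with certainty. The 2 genes are therefore not separate observations.

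Psme3 encodes PA28 gamma, the nuclear form of the activator, and it fell. Its values were 209.6, 195 and 200.3 FPKM with sulfasalazine, against 352, 393 and 398 FPKM in controls, with no overlap (chr11:101316213-101323537; log2 fold change -0.91, SE 0.10, adjusted p = 0.00012). As a description chosen after the values were seen, the FPKM of Psme1 was 0.679, 0.753 and 0.681 times that of Psme3 in the treated libraries, against 0.0282, 0.0266 and 0.0688 times in the controls. Psme4, encoding the large nuclear activator PA200, had 43.7, 38.4 and 56.7 FPKM with sulfasalazine and 58.7, 50.4 and 23.3 FPKM in controls, and the groups overlapped. It did not pass (log2 fold change 0.15, 95% interval -0.59 to 0.89), and its estimate was -0.25 without control replicate 3, the lowest of its controls. Psmf1, encoding the proteasome inhibitor PI31, rose to 34.98, 36.4 and 37.1 FPKM with sulfasalazine, against 19.6, 14.98 and 19.6 FPKM in controls (log2 fold change 0.97, SE 0.14, adjusted p = 0.00042).

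The promoter windows of Psme1, Psme2 and Psme3 are shown because the genes of the PA28 family differed in direction, and those of Psmb5 and Psmb6 because both rose among the cutting subunits. They are RefSeq windows on GRCm38.p6, cut to 250 bases before and 30 after the annotated start, 5′ to 3′ on the gene's strand. Psme2 has another RefSeq window, chr14:55590992-55591271 when cut in the same way, which is not printed. Capitals mark matches to the elements named after the sequences, other than the CCAAT box, which is left in lower case.
Psme1, chr14:55578244-55578523, plus strand: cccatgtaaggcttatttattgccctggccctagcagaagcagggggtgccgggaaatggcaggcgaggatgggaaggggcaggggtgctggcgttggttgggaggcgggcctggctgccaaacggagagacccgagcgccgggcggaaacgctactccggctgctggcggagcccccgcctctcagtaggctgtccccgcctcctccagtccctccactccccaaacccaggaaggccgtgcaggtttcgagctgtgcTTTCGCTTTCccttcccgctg
Psme2, chr14:55591072-55591351, minus strand: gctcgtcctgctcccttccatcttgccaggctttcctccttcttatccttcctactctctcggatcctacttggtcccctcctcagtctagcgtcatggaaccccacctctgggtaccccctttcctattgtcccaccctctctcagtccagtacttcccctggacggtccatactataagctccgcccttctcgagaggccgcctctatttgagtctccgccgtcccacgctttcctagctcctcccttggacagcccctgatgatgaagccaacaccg
Psme3, chr11:101315963-101316242, plus strand: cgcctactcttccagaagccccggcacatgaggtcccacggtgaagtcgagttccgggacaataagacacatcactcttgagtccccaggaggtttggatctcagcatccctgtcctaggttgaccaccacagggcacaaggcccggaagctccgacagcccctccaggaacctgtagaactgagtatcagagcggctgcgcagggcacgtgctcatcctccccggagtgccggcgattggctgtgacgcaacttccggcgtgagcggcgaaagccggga
Psmb5, chr14:54617966-54618245, minus strand: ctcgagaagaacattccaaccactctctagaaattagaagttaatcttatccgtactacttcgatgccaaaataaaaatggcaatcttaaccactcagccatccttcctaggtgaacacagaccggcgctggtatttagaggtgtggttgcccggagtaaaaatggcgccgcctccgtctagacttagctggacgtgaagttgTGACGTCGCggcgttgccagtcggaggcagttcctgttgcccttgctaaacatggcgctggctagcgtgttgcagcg
Psmb6, chr11:70525107-70525386, plus strand: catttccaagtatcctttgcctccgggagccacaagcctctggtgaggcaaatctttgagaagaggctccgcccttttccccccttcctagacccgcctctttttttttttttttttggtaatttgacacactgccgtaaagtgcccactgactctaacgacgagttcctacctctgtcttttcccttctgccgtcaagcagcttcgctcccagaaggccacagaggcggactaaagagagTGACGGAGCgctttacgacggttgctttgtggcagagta
Windows from 250 bases before to 50 after the start were given for 41 of the 48 members and searched on both strands. The interferon-stimulated element, spelled GAAA, any 2 bases and GAAA again, matched in 5 of the 41 (12.2%), where 4.0% of all 27025 genes with a window held it. Psme1 carried it at positions 10 to 19 after the start, on the opposite strand, and the other 4 were Psmb3, Psmd4, Psmd9 and Psmg4, of which Psmd4 rose and the others did not pass. The antioxidant response element TGACNNNGC, the kind of site bound by the factors NFE2L1 and NFE2L2, matched in 6 of 41 members (14.6%) and in 14.0% of all genes. Psmb5 carried it 47 to 39 bases before the start and Psmb6 9 to 1 bases before it. The others were Psmc6, which fell, and Psmd9, Psmd12 and Psme4, which did not pass. The kappa-B letters, GGGA, any 2 bases and TTCC, matched in 1 of 41 (2.4%, Psme4) and in 1.6% of all genes, and the CCAAT box in 14 of 41 (34.1%) and in 41.1%. The Psme2 and Psme3 windows shown held none of the first 3 elements, and Psme3 held CCAAT. Matches of different elements shared no letters in any member's window. These matches are letters in a window, and binding was not measured.

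The constitutive cutting subunits did not move together. Psmb5, Psmb6 and Psmb7 encode the chymotrypsin-like, caspase-like and trypsin-like subunits. Psmb5 (chr14:54614119-54618022) stood at 62.8, 61.3 and 61.8 FPKM with sulfasalazine, against 34.99, 37.9 and 43.96 FPKM in controls, and rose by 0.66 on the log2 scale (SE 0.12, adjusted p = 0.0012). Transcripts of other genes hold 54.1% of its 50-base words, mainly Gm3375, so its level is uncertain. Psmb6 (chr11:70525367-70527858) stood at 238, 239 and 236 FPKM with sulfasalazine, against 136, 141 and 156 FPKM in controls (log2 fold change 0.72, SE 0.10, adjusted p = 0.00033). Psmb7 (chr2:38588036-38644087) went the other way, with 53.6, 58.8 and 57.1 FPKM in treated libraries and 78.8, 77.7 and 71.8 FPKM in controls (log2 fold change -0.42, SE 0.10, adjusted p = 0.0057). For all 3 genes the treated and control libraries were fully separate, and the treated libraries of Psmb5 and Psmb6 lay close together (SD 0.767 and 1.25 FPKM). The exons of Psmb7 overlap Nek6 on the opposite strand over 11.8% of their bases.

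Of the immunoproteasome genes, Psmb8 and Psmb9 were scarcely read and Psmb10 was read at a low level. Psmb8 lies 9956 bases from Psmb9 in the major histocompatibility region of chromosome 17. Psmb8 (chr17:34197721-34201454) had 0, 0 and 1 reads with sulfasalazine and 0, 1 and 4 reads in controls. A count of 0 allows up to 3 reads, which is 0.113 FPKM in sulfasalazine replicate 1, so a difference was not detectable at this depth. Psmb9 (chr17:34181987-34187764) had 8, 4 and 7 reads with sulfasalazine, which is 0.330, 0.179 and 0.324 FPKM, against 1, 0 and 1 reads in controls, which is 0.0456, 0 and 0.0557 FPKM. The treated libraries were all above the controls, but every library was below the level tested here, and 5.8% of the exonic bases of Psmb9 lie in Tap1 on the opposite strand. The authors' deposited table has Psmb9 higher (log2 fold change 2.83, adjusted p = 0.0045) and Psmb8 not passing (adjusted p = 0.29). With no filter on low values, limma on log2(FPKM + 1) also called Psmb9 higher (0.30, adjusted p = 0.0037) and did not call Psmb8 (adjusted p = 0.33). Read limits cover counting error only.

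Psmb10 (chr8:105935735-105938444), the inducible partner of Psmb7, was the best read of the 3. It stood at 7.69, 9.44 and 8.38 FPKM with sulfasalazine, against 4.81, 3.88 and 14.6 FPKM in controls, so that control replicate 3 was above and the other controls were below all treated libraries. It did not pass (log2 fold change 0.31, 95% interval -0.60 to 1.23, adjusted p = 0.5). Without control replicate 3 it passed as higher at 0.83 (adjusted p = 0.0016), and without control replicate 2 the estimate was -0.0072. Blood-lineage cells hold immunoproteasomes constitutively. Of 10 markers of them 6 had values, 4 of these with a mean below 1 FPKM. Their summed level was 17.7 to 28.2 FPKM with sulfasalazine, nearly all from Cd68. In controls it was 39.4 to 63.9 FPKM, nearly all from Cd68 and Cd74. Cd74 stood at 0.212, 0.690 and 0.953 FPKM with sulfasalazine, against 7.09, 7.01 and 16.9 FPKM in controls. Both genes fell (log2 fold change -0.91, adjusted p = 0.011 for Cd68, and -2.73, adjusted p = 0.00019 for Cd74). Ptprc, Adgre1, Itgam and Tyrobp were not analysed here, and the part of such cells in the result was not tested.

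Each inducible subunit was also set against the constitutive subunit whose place it takes, as the log2 ratio of (FPKM + 1) in each library. Psmb8 to Psmb5 averaged -5.96 ± 0.04 with sulfasalazine and -5.21 ± 0.03 in controls (SD, n = 3 each; exact permutation test, two-sided, p = 0.1, the smallest that 3 against 3 allows). Psmb8 was near 0 in all libraries, so that difference of -0.75 rests on Psmb5. Psmb9 to Psmb6 averaged -7.55 ± 0.10 with sulfasalazine and -7.13 ± 0.09 in controls, a difference of -0.42 (exact permutation p = 0.1), and the sign turned to 0.77 with a pseudocount of 0.1 FPKM in place of 1. Psmb10 to Psmb7 averaged -2.60 ± 0.07 with sulfasalazine and -3.34 ± 0.97 in controls, a difference of 0.74 (exact permutation p = 0.4) that did not exceed the spread of the controls.

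**Figure D2:**
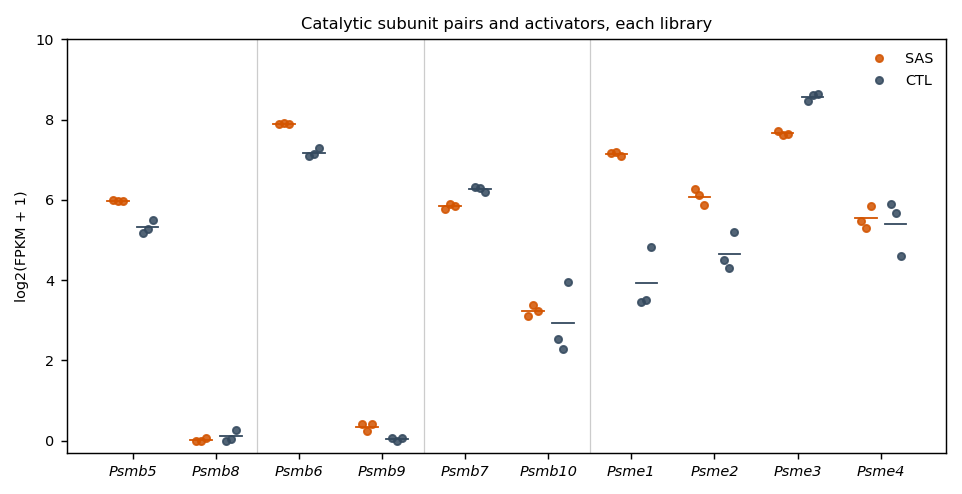
Level as log2(FPKM + 1) of the constitutive and inducible cutting subunits, in pairs, and of the activators; points are single libraries, sulfasalazine (SAS) left of control (CTL), and lines are means of 3. Psmb8 and Psmb9 sit at the bottom in all 6 libraries, Psme1 rises to the level of Psmb5 and above, and Psme3 stays the highest activator in both groups.

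The remaining beta subunits, which are structural, did not pass. Psmb3 had 233, 241 and 217 FPKM with sulfasalazine and 170.3, 164 and 218 FPKM in controls (log2 fold change 0.33, adjusted p = 0.053) and passed as higher without control replicate 3 (0.46, adjusted p = 0.0021). Other genes hold 17.79% of the 50-base words of Psmb3. The 95% intervals of the log2 fold change were -0.30 to 0.16 for Psmb1, -0.27 to 0.27 for Psmb2 and -0.36 to 0.16 for Psmb4, so changes beyond those bounds are outside the intervals. Psmb2 averaged 175 ± 13.4 FPKM with sulfasalazine and 175 ± 19.2 FPKM in controls (SD, n = 3 each).

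In the alpha ring 3 of 7 tested genes rose, 1 fell and 3 did not pass, where 37.2% of all tested genes rose and 29.3% fell. Psma5 stood at 58.2, 64.6 and 72.5 FPKM with sulfasalazine, against 31.95, 33.4 and 34.8 FPKM in controls (log2 fold change 0.94, SE 0.12, adjusted p = 0.00021), but other genes, mainly Gm8394, hold 49.96% of its 50-base words. Psma7 stood at 297, 279 and 256 FPKM with sulfasalazine, against 112, 130.1 and 209 FPKM in controls (log2 fold change 0.93, SE 0.21, adjusted p = 0.0053). Control replicate 3 lay nearer to the treated libraries than to control replicate 1, and the estimate without it was 1.19. Psma1 rose by 0.44, with 69.7 ± 4.15 FPKM in treated libraries and 51.2 ± 3.07 FPKM in controls. Psma6 fell, with 114, 113 and 114 FPKM in treated libraries, against 183, 179.7 and 169.99 FPKM in controls (log2 fold change -0.64, SE 0.09, adjusted p = 0.00041). Psma2, Psma3 and Psma4 had log2 fold changes of 0.29, -0.26 and -0.11 and did not pass; without control replicate 3, Psma2 passed as higher (0.38, adjusted p = 0.0070) and Psma3 as lower (-0.34, adjusted p = 0.015). Psma3 also passed as lower with median-of-ratios scaling (-0.39, adjusted p = 0.017). The testis subunit gene Psma8 and the thymus subunit gene Psmb11 were not analysed here.

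Core subunits are present in equal number in the assembled particle, whereas their RNA levels were not equal in either group. Within the alpha ring the highest gene, Psma7 in all treated libraries, had 6.75, 6.32 and 5.22 times the FPKM of the lowest in those libraries. The ratio was 5.71, 5.38 and 5.99 in the controls, where Psma6 was highest in replicates 1 and 2 and Psma7 in replicate 3. Among the 7 constitutive beta genes that ratio was 4.43, 4.10 and 4.15 with sulfasalazine and 6.82, 6.08 and 6.44 in controls. The lowest genes were Psma5 and Psmb5 in every control library, and Psma2 and Psmb7 in every treated library. Much of the sequence of Psma5 and Psmb5 also occurs in other genes, as given above, so their levels are uncertain. The control ratios, and their difference from the treated ratios, are therefore uncertain too. The mean over the alpha genes was 108, 107 and 111 FPKM with sulfasalazine and 87.3, 93.6 and 102 FPKM in controls, and over the constitutive beta genes it was 157, 163 and 155 FPKM with sulfasalazine and 134, 135 and 154 FPKM in controls. These means are descriptions and rest mostly on the highest genes.

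Of the 6 ATPase genes of the cap base, Psmc1, Psmc2, Psmc5 and Psmc6 fell, Psmc3 rose and Psmc4 did not pass, where 29.3% of all tested genes fell. Their median log2 fold change was -0.49, against 0.08 over all tested genes. The calls of Psmc2 and Psmc6 were lost when single libraries were left out. Psmc5 stood at 95.3, 96.7 and 91.5 FPKM with sulfasalazine, against 136, 147 and 157 FPKM in controls (log2 fold change -0.63, SE 0.10, adjusted p = 0.00073). Psmc1, the most abundant member in the controls, averaged 384 ± 6.25 FPKM with sulfasalazine and 592 ± 19.8 FPKM in controls and fell by 0.62; other genes hold 14.1% of its 50-base words. Psmc6 stood at 46.98, 51.2 and 67.8 FPKM with sulfasalazine, against 127, 153 and 62.4 FPKM in controls, and the groups overlapped, with control replicate 3 below the highest treated library. Its log2 fold change of -0.95 (SE 0.31, adjusted p = 0.025) lost the call without sulfasalazine replicate 1 or 2 or control replicate 1 or 2 (adjusted p = 0.066 to 0.094) and was -1.33 without control replicate 3. Psmc2 averaged 51.2 ± 5.69 FPKM in treated libraries and 65.2 ± 1.88 FPKM in controls; its call was lost without sulfasalazine replicate 1 or 2 or control replicate 2 (adjusted p = 0.074 to 0.14).

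Psmc3 ran against the other ATPase genes, with 265, 265 and 252 FPKM in treated libraries and 171, 184 and 216 FPKM in controls (log2 fold change 0.46, SE 0.12, adjusted p = 0.0081). With median-of-ratios scaling it did not pass (adjusted p = 0.056), and 8.2% of its exonic bases lie in Slc39a13 on the opposite strand. Psmc4 had a log2 fold change of -0.26 (adjusted p = 0.051). The median of the 3 non-ATPase genes of the base was 0.56. Psmd1, a scaffold subunit, stood at 76.5, 79.01 and 81.3 FPKM with sulfasalazine, against 43.8, 39.2 and 27.96 FPKM in controls (log2 fold change 1.10, SE 0.16, adjusted p = 0.00054). The ubiquitin receptor gene Psmd4 rose to 194, 207 and 184 FPKM with sulfasalazine, against 127, 124 and 148 FPKM in controls (log2 fold change 0.56, adjusted p = 0.0024). Psmd2, the other large scaffold gene, averaged 331 ± 19.8 FPKM with sulfasalazine and 281 ± 8.18 FPKM in controls and did not pass (adjusted p = 0.066).

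Of the 8 lid genes matching the symbol rule 5 rose, where 37.2% of all tested genes did, and 1 fell, the gene of the lid's enzyme. Sem1, a further lid gene whose symbol lies outside the rule, also fell (log2 fold change -0.61, adjusted p = 0.0026). Of the 5 rises, those of Psmd6 and Psmd11 were lost under several alternatives given below. Psmd14 encodes the deubiquitinase that cuts the ubiquitin chain from the substrate. Psmd14 (chr2:61711694-61800376) stood at 72.5, 76.5 and 85.97 FPKM with sulfasalazine, against 161, 166 and 152 FPKM in controls, with no overlap, and fell by 1.02 on the log2 scale (SE 0.10, adjusted p = 7.6e-05). Psmd7, whose product pairs with that of Psmd14 in the lid, stood at 99.98, 102 and 98.3 FPKM with sulfasalazine, against 54.8, 63.5 and 72.9 FPKM in controls (log2 fold change 0.65, SE 0.12, adjusted p = 0.0018). As a description chosen after the values were seen, Psmd14 had 0.725, 0.753 and 0.874 times the FPKM of Psmd7 in the treated libraries, against 2.94, 2.61 and 2.09 times in the controls. Psmd13, a structural lid gene (chr7:140881968-140898643), rose to 105, 109.8 and 99.2 FPKM with sulfasalazine, against 46.8, 48.2 and 54.7 FPKM in controls (log2 fold change 1.06, SE 0.11, adjusted p = 6.9e-05); 10.1% of its exonic bases lie in Sirt3 on the opposite strand.

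Among the other structural lid genes, Psmd3 averaged 187 ± 4.90 FPKM with sulfasalazine and 128 ± 17.6 FPKM in controls and rose by 0.55. Psmd6 and Psmd11 rose by 0.38 and 0.29 (adjusted p = 0.021 and 0.028). Both calls were lost without any 1 sulfasalazine library or control replicate 1 (adjusted p = 0.051 to 0.089) and with median-of-ratios scaling (adjusted p = 0.087 for Psmd6 and 0.19 for Psmd11). Psmd8 averaged 320.1 ± 19.8 FPKM with sulfasalazine and 314 ± 13.7 FPKM in controls (log2 fold change 0.03, 95% interval -0.21 to 0.26). Psmd12 had a log2 fold change of -0.24 (adjusted p = 0.12) and passed as lower without control replicate 3 (-0.34, adjusted p = 0.0071) and with median-of-ratios scaling (-0.36, adjusted p = 0.035).

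The chaperones that assemble the particle fell or did not pass, with 1 exception. Over all tested genes 29.3% fell and 37.2% rose, and with classes this small nothing is read from the counts. Of those for the cap base, Psmd5 had 49.6, 45.8 and 40.2 FPKM with sulfasalazine and 56.9, 62.2 and 75.7 FPKM in controls (log2 fold change -0.51, SE 0.14, adjusted p = 0.012). Psmd10, which encodes gankyrin, had 8.59, 11.1 and 10.97 FPKM with sulfasalazine and 16.5, 14.1 and 13.4 FPKM in controls (log2 fold change -0.49, adjusted p = 0.027), a call lost without sulfasalazine replicate 1 or control replicate 1 or 2 (adjusted p = 0.055 to 0.13). Psmd9 did not pass (-0.05, 95% interval -0.36 to 0.26), and 25.5% of its exonic bases lie in Gm26745 on the opposite strand. For the core, the products of Psmg1 and Psmg2 work as a pair, and the genes differed in direction. Psmg2 fell, with 16.5, 13.6 and 13.2 FPKM in treated libraries and 24.2, 23.9 and 29.7 FPKM in controls (log2 fold change -0.80, SE 0.15, adjusted p = 0.0018). Psmg1 was the exception, with 38.8, 42.1 and 42.98 FPKM in treated libraries and 26.03, 28.7 and 36.2 FPKM in controls (log2 fold change 0.44, adjusted p = 0.023); its call held without control replicate 3 and was lost without any 1 of the other libraries (adjusted p = 0.052 to 0.080). Psmg3 and Psmg4, the other pair, had log2 fold changes of -0.31 and -0.20 and did not pass. Psmc3ip shares its first letters with the ATPase gene but encodes a recombination protein; it had 4.06, 4.63 and 9.60 FPKM with sulfasalazine and 5.75, 8.33 and 9.35 FPKM in controls, did not pass (adjusted p = 0.3), and passed as lower without sulfasalazine replicate 3 (-0.70, adjusted p = 0.032).

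**Figure D3:**
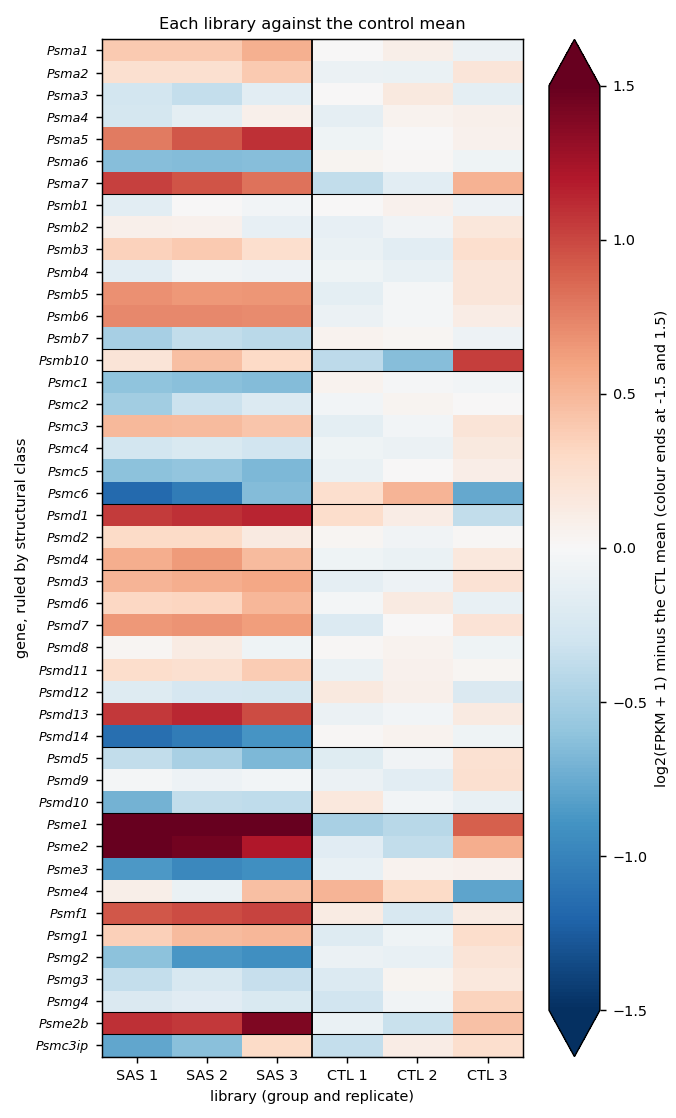
Level of each tested proteasome gene in each library, as log2(FPKM + 1) minus the mean of the control libraries; columns are sulfasalazine (SAS) and control (CTL) replicates and lines part the structural classes. The 3 SAS columns look alike for most genes, while CTL replicate 3 departs from the other controls for genes such as Psmb10, Psmc6, Psme1 and Psme4.

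The authors' deposited table has 14 members higher and 11 lower at its adjusted p under 0.05. Of the 29 members called here, 24 passed there in the same direction and 0 in the opposite one. The 5 that did not pass in the authors' deposited table were Psma1, Psmc3, Psmd6, Psmd11 and Psmg1, all rises of 0.46 or less here, and Psmb9, not tested here, passed there. For Psme1 the authors' deposited table gives a log2 fold change of 3.06 (adjusted p = 1.4e-18) and for Psmd14 of -1.13 (adjusted p = 4.0e-10).

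Genes that work beside these members, in lists of known partners, also went in both directions. Of 11 tested parts and partners of the proteasome 2 rose and 6 fell, with a median log2 fold change of -0.51. For these lists too, the shares over all tested genes were 37.2% higher and 29.3% lower, with a median of 0.08, and with lists this small nothing is read from the counts. Adrm1, a ubiquitin receptor of the cap, averaged 119.6 ± 7.07 FPKM with sulfasalazine and 76.6 ± 9.01 FPKM in controls (log2 fold change 0.64, adjusted p = 0.0016). Akirin2, whose product carries proteasomes into the nucleus, stood at 52.6, 50.7 and 48.4 FPKM with sulfasalazine, against 189, 162 and 184 FPKM in controls, and fell by 1.79 (SE 0.10, adjusted p = 8.0e-06). Txnl1, a thioredoxin-like protein bound to the cap, fell by 0.81, and Zfand5, which encodes a proteasome-binding zinc-finger protein, rose by 0.65. Pomp, the maturation factor of the core, did not pass (-0.06, 95% interval -0.29 to 0.16).

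NFE2L1 is the factor known to raise proteasome genes as a set when degradation is blocked. Nfe2l1 stood at 192, 185 and 248 FPKM with sulfasalazine, against 346, 341 and 369 FPKM in controls, and fell (log2 fold change -0.77, SE 0.13, adjusted p = 0.0012). Nfe2l2, its relative, fell by 1.20. Ngly1, encoding the enzyme that removes sugars from NFE2L1, fell to 4.58, 3.97 and 7.45 FPKM with sulfasalazine, against 10.8, 12.3 and 12.5 FPKM in controls (log2 fold change -1.06, adjusted p = 0.0028). Ddi2, the protease that cleaves the factor, did not pass (-0.03, 95% interval -0.46 to 0.41). Maff and Mafk, which encode small Maf proteins that bind DNA together with NFE2L1 and NFE2L2, fell by 2.90 and 1.83. Vcp, the ATPase that extracts the factor from the ER membrane, rose to 454, 444 and 440.4 FPKM with sulfasalazine, against 189.5, 196 and 168 FPKM in controls (log2 fold change 1.27, SE 0.10, adjusted p = 2.7e-05), and Btrc, a ubiquitin ligase subunit that also recognises IκBα, rose by 1.20. In all, 6 of the 14 genes tested in this list rose and 6 fell.

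Upstream of the particle, Uba1, encoding the main ubiquitin-activating enzyme, rose by 0.38 on the log2 scale, a call lost without sulfasalazine replicate 1 or 2 (adjusted p = 0.061 and 0.058) and with median-of-ratios scaling (adjusted p = 0.11). Rps27a, which encodes ubiquitin joined to a ribosomal protein, fell by 0.72. Over the 5 ubiquitin and ubiquitin-activating genes given here 1 rose and 1 fell. Among 9 tested ubiquitin receptors and shuttles 3 rose and 3 fell. Ubqln2 rose by 1.42 while its relative Ubqln1 fell by 0.87, both of them carriers of ubiquitin-tagged proteins. Rad23b, another such shuttle, fell by 0.93, and Nub1, which binds NEDD8, a relative of ubiquitin, rose by 0.62.

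Of 8 tested genes of antigen presentation and interferon response 2 rose and 2 fell. Tap2, a peptide transporter gene next to Psmb8, averaged 4.92 ± 0.624 FPKM with sulfasalazine and 0.832 ± 0.297 FPKM in controls (log2 fold change 1.70, adjusted p = 7.4e-05). Its control libraries were near or below 1 FPKM, so the size depends on the scale: it was 2.48 with a pseudocount of 0.1 and 2.62 by limma voom on recovered reads. Tapbp, encoding the peptide-loading factor tapasin, rose by 1.88. B2m, the light chain of class I molecules, fell by 0.74, and Nlrc5, a class I transactivator, fell by 1.93 (SE 0.16, adjusted p = 3.2e-05).

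**Figure D4:**
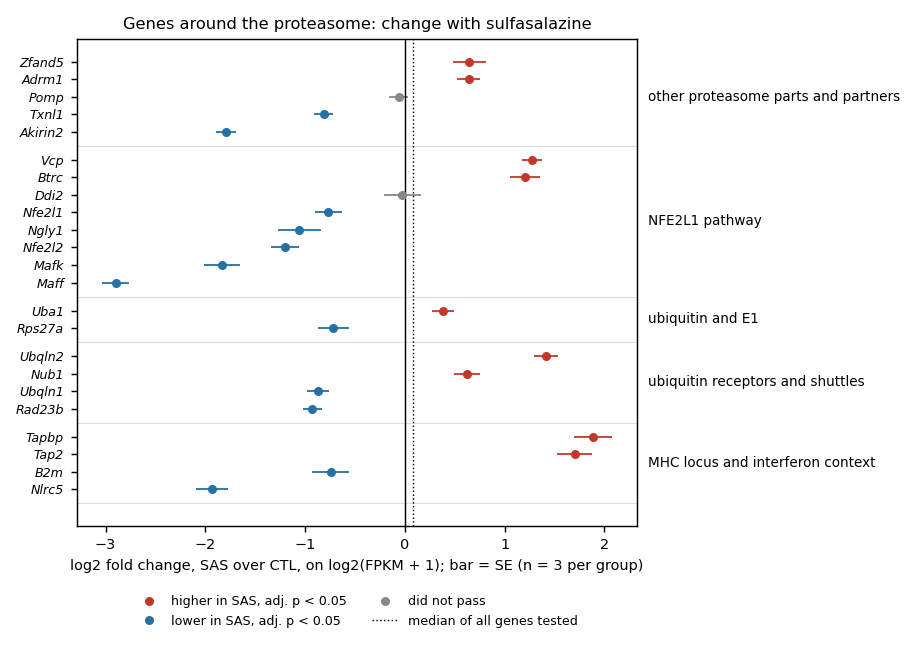
Log2 fold change, sulfasalazine (SAS) over control (CTL), of named genes around the proteasome, on log2(FPKM + 1); points are limma estimates, bars are 1 SE and n = 3 libraries per group. Each list holds genes on both sides of 0, with Maff farthest left at -2.90 and Tapbp farthest right at 1.88.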

How the data were processed

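RNA was sequenced from 3 sulfasalazine-treated and 3 untreated libraries of MC3T3-E1 cells (per the labels' protocols, paired-end Illumina reads after rRNA depletion with a kit for bacteria). The submitters' processing notes name HISAT2 2.2.1, HTSeq 0.13.5, fastp 0.23.0, edgeR and build mm39, without roles; the gene positions in the files are those of GRCm38 (13849 of 13982 genes matched to GENCODE M21 had the same start and end, all 48 members among them), and GRCm38 coordinates are given. The deposited table holds FPKM per library, and a library-adjusted signal per gene made by the authors, with whose help whole reads were recovered. Per the file headers, each gene further has a log2 fold change by the authors, with a p-value by the authors, raw and adjusted. No source used here says whether strand was used in counting.

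Whole reads came out for 100.0% of 14003 genes within 1e-05 reads, 654 of them with more than 1 possible set, and gave the depth. log2(FPKM + 1) was fitted with limma 3.58.1 (lmFit, eBayes with trend, R 4.3.3) on 10338 genes with 1 FPKM or more in at least 3 of 6 libraries, with Benjamini-Hochberg adjustment over all of them and a two-sided adjusted p under 0.05. The log2(FPKM + 1) scale understates changes of low genes. The test was checked on simulated data. Ratios of subunits were compared by an exact permutation test. Shared sequence was counted as exonic overlap and as 50-base words in GENCODE M21 transcripts. Other genes also held 17.83% of the words of Psmd2, 17.64% of Psmc3ip, 15.39% of Psma3 and 14.35% of Psma4. Shares are not given for every member. Values in every library are given for the inducible subunits and their counterparts, for the members below the filter, and for the 2 largest called rises and falls of each structural class; of each partner list, up to 4 called genes with the largest change are named, with Nfe2l1, Nfe2l2, Ddi2, Ngly1, Pomp and Akirin2 in any case. Alternatives were the filter, pseudocount, scaling, trend, threshold, replicate block and each library left out; limma voom on recovered reads was added after seeing the data. The members and lists were chosen with earlier results of these data known. No column of per-sample values was left out. Sem1 is named beside the lid genes, other partner genes outside this rule are counted but not named, and some listed genes were not analysed here.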

Additional observations from a re-analysis of the deposited data

How the results depend on the processing

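Of the 29 members called, 21 (14 higher, 7 lower) kept their direction and call under all 15 alternatives, counting each library left out, and 8 lost the call under at least 1 of them; 9 tested members that were not called passed under at least 1. With no filter on low values, 19 members were higher and 12 lower, with Psmb9 added as higher and Psmc4 as lower. At an adjusted p under 0.01, 15 members were higher and 7 lower. Limma voom on the recovered whole reads gave 18 higher and 11 lower members and 3889 higher and 3021 lower genes. Median-of-ratios scaling gave 14 higher and 15 lower members and 3437 higher and 3530 lower genes, where the fit reported gave 3846 and 3032; under it Psmg1 lost the call (adjusted p = 0.085), and Psmc4 (-0.39, adjusted p = 0.019) and Psmg3 (-0.41, adjusted p = 0.047) passed as lower. Quantile normalization moved the median of all genes by -0.11 and gave 20 higher and 12 lower members. With it Psmd2 (0.42, adjusted p = 0.0048) and Psmb3 (0.50, adjusted p = 0.0039) passed as higher. Psmg3 passed there as lower (-0.58, adjusted p = 0.017). The sign of the Psmb9 to Psmb6 ratio turned to 0.77 with a pseudocount of 0.1. Genes that changed sign were called in neither setting: with median-of-ratios scaling Psmb2 (-0.12) and Psmd8 (-0.10), with quantile normalization Psmb4 (0.10) and Psmb1 (0.00073), and over the fits without 1 library Psmb2 (-0.057 to 0.090), Psmd8 (-0.017 to 0.071), Psme4 (-0.25 to 0.40), Psmd9 (-0.12 to 0.074) and Ddi2 (-0.20 to 0.062). Psmb10 ran from -0.0072 to 0.83 over those fits and passed without control replicate 3. The causes were not tested. Over the fits without 1 library, the members called ran from 15 to 21 higher and from 8 to 13 lower.

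Same-numbered libraries of the groups did not deviate together (correlation of deviations 0.04, -0.19 and -0.17 over 10338 genes), so the numbers were not taken to pair them. With a replicate block, 16 members were higher and 9 lower, and Psmd6, Psmd11, Psmc2 and Psmd10 lost the call. Psmg3 had no value under the 5 FPKM filter. Depth limits Psmb8 and Psmb9, with at most 8 reads in a library.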
